A study of Homo sapiens and Mus musculus with 18 samples.

Results

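Transcripts of 10 genes of glucose uptake and glycolytic isozyme choice were followed across human and mouse gastruloid development. The genes were SLC2A1, SLC2A3, HK1, HK2, PFKP, PFKL, LDHA, LDHB, PDK1 and PFKFB3, taken by symbol, and all 10 were found in both species, among 44910 human and 29720 mouse genes with counts. RNA was sequenced from 18 samples, 2 biological replicates of each of 9 groups. The 5 human groups were naïve H9 ESCs (human embryonic stem cells chemically reset and grown in PXGL medium, on mouse feeder cells that were removed over passages), H9 ESCs in the primed state, and primed ESCs of RUES2-GLR (a germ layer reporter line), both kept in StemFlex medium on Geltrex, and RA-gastruloids (cell aggregates patterned with the Wnt agonist CHIR and retinoic acid) made from primed RUES2-GLR ESCs and collected early, at 24 h, or late, at 120 h. For RA-gastruloids the ESCs were first plated in NutriStem medium and given CHIR, then CHIR with retinoic acid. The pre-treated cells were aggregated in Essential 6 medium with CHIR, and Matrigel and retinoic acid were added later. The 24 h and 120 h count from aggregation. The 4 mouse groups all came from the E14Tg2a line: naïve ESCs in 2iLif medium, EpiLCs (epiblast-like cells, day 2 in activin A and bFGF), and early (day 3) and late (day 6) gastruloids grown from naïve ESCs in N2B27 medium with a CHIR pulse. No group carried a knockout or a perturbation, each replicate was a pool of cells or of gastruloids, and every group rests on 1 established line.

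Cells take up glucose through facilitative transporters of the SLC2A (GLUT) family, trap it as glucose 6-phosphate with a hexokinase and commit it to glycolysis at phosphofructokinase. Several steps can be run by more than 1 gene product, and the isozymes differ in kinetics: HK2 is the inducible hexokinase of fast-growing and insulin-responsive cells and HK1 the widely expressed one, PFKP and PFKL are the platelet-type and liver-type phosphofructokinase subunits, and LDHA favours the conversion of pyruvate to lactate while LDHB favours the reverse reaction. PFKFB3 makes fructose 2,6-bisphosphate, a strong activator of phosphofructokinase, and PDK1 phosphorylates and inhibits pyruvate dehydrogenase, which limits the entry of pyruvate carbon into the citric acid cycle. SLC2A1, HK2, LDHA, PDK1 and PFKFB3 are textbook targets of the hypoxia-inducible factors, which bind short elements whose core can be ACGTG. Pluripotent cells are known for high glycolytic flux, and naïve and primed states for different balances of glycolysis and respiration.

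Library totals ran from 3681739 to 38771193 assigned reads in human samples (median 13561656) and from 6487157 to 20052505 in mouse samples (median 9812648), with the shallowest library being replicate 2 of primed RUES2-GLR ESCs. Levels are given in CPM, counts scaled to a common library size with TMM factors, and a gene was called at a step when its adjusted p was below 0.05 and its log2 fold change was above 1 or below -1. Stage markers followed the labels: summed CPM of the naïve markers KLF17, DPPA5 and SUSD2 was at least 3004 in naïve H9 ESCs and at most 9.24 elsewhere, the early markers TBXT, MIXL1 and CDX2 reached 427 and 440 in early RA-gastruloids, and the late markers PAX6, PAX3, MEOX1 and TWIST1 reached 484 and 447 in late RA-gastruloids. The mouse late markers Meox1, Pax6, Pax3 and Tcf15 summed to 166 and 161 CPM in late gastruloids, most of it Meox1, at 140 and 135 CPM. Their sum was 20.9 and 19.9 CPM in naïve ESCs, 68.9 and 75.5 in EpiLCs and 34.8 and 34.1 in early gastruloids. The pluripotency gene Pou5f1 was at 87.1 and 84.0 CPM in mouse late gastruloids, whereas POU5F1 was at 0.388 and 0.612 CPM in human late RA-gastruloids. Mouse early gastruloids still held 832 and 817 CPM of the naïve markers Klf4, Zfp42, Tbx3 and Esrrb, against 1972 and 2002 in naïve ESCs. Replicates of a stage were collected in 1 batch, so p-values measure the spread within that batch, and stage, medium, culture format and batch cannot be told apart. In these bulk samples, fewer cells that express a gene and less RNA of it per cell cannot be told apart either.

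Only the form ACGTG of the core was searched, on either strand (CACGT on the other), within 250 bases upstream of a transcription start. Of the 9 human genes with a promoter entry in RefSeq, 5 held it: HK2, PFKP, LDHA, PDK1 and PFKFB3. The 9 genes had 22 promoter windows, of which 6 held it, and of all 35116 RefSeq promoter windows of that length 18.5% did. The symmetrical form CACGTG, which is also the E-box read by MYC and other factors and is counted here once although it matches on both strands, was in 6.34% of all windows and made up 5 of the 11 sites. The 11 sites are shown because they are the only stretches of these windows that carry ACGTG or CACGT. Other forms of the core were not searched. They are written 5′ to 3′ on the plus strand of GRCh38.p14, which is also the strand of all 5 genes. Each line has its own site in capitals, with 10 flanking bases where the window allowed. A neighbouring site that falls in the flank, as in PDK1, is left in lower case.
HK2, chr2:74833888-74833912: ccacggaccaCACGTcccatctcag
HK2, chr2:74834069-74834093: tgggcgtgcgCACGTcactgatccg
HK2, second start, chr2:74834966-74834991: ttgctgcgccCACGTGggagggagcc
HK2, second start, chr2:74835011-74835036: ccggcgagagCACGTGgagagaatcg
PFKP, the third start, chr10:3069040-3069064: acgagcgcctACGTGatgcccggcc
LDHA, chr11:18394368-18394393: actcccagcgCACGTGgagcagtctg
LDHA, chr11:18394466-18394491: gcccgactcaCACGTGggttcccgca
LDHA, chr11:18394480-18394504: tgggttcccgCACGTccgccggccc
PDK1, second start, chr2:172556063-172556087: tgctgcccgcCACGTccctcacgta
PDK1, second start, chr2:172556072-172556089: ccacgtccctCACGTacc
PFKFB3, second start, chr10:6202814-6202839: ccctcctcccCACGTGgaagggggct
Starts are numbered in the order of the RefSeq entries of a gene, and the first is not marked. In LDHA the sites lay 185, 87 and 73 bases before the start. The windows of SLC2A1, HK1, PFKL and LDHB did not contain these letters, and no binding was measured here.

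Human SLC2A1 and SLC2A3, the main transporters for basal glucose uptake (GLUT1 and the high-affinity GLUT3), were low in H9 ESCs of either state, high in primed RUES2-GLR ESCs and early RA-gastruloids, and lowest in late RA-gastruloids. SLC2A1 (ENSG00000117394, GRCh38 chromosome 1, 42925353 to 42958893, minus strand) was at 385 and 411 CPM in naïve H9, 403 and 423 in primed H9, 2628 and 2980 in RUES2-GLR, 3381 and 3467 in early RA-gastruloids, and 307 and 246 in late ones. The replicates of naïve and primed H9 ESCs overlapped, and every other pair of neighbours in the order of levels was apart. From primed H9 to primed RUES2-GLR ESCs SLC2A1 rose by 2.76 ± 0.11 (log2 fold change ± SE, edgeR adjusted p = 4.82e-19), and from early to late RA-gastruloids it fell by 3.63 ± 0.12 (edgeR adjusted p = 7.04e-22), 12.3-fold. SLC2A3 (ENSG00000059804, chromosome 12, 7919230 to 7936187, minus strand) was at 320 and 300 CPM in naïve H9, 604 and 607 in primed H9, 3103 and 3107 in RUES2-GLR, 2558 and 2584 in early RA-gastruloids, and 79.3 and 88.3 in late ones. No neighbouring groups overlapped, and the highest group mean was 37.1 times the lowest, the widest range of the 10 human genes. SLC2A3 rose by 2.36 ± 0.10 between the primed lines (edgeR adjusted p = 1.39e-18) and fell by 4.94 ± 0.11 from early to late RA-gastruloids (edgeR adjusted p = 2.08e-25). Of the 50-base stretches of SLC2A3 transcripts, 13.3% also occur in SLC2A14, a near copy, and reads that map to both were left out by default. SLC2A14 was at no more than 12.6 CPM in any sample and was highest in naïve H9 ESCs.

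Mouse Slc2a1 and Slc2a3 followed another course, with both highest in naïve ESCs. Slc2a1 (ENSMUSG00000028645, GRCm39 chromosome 4, 118965908 to 118995180, plus strand) was at 775 and 808 CPM in naïve ESCs, 459 and 425 in EpiLCs, 442 and 457 in early gastruloids and 449 and 455 in late gastruloids. The last 3 groups overlapped with their neighbours, and Slc2a1 was not called at any mouse step. Slc2a3 (ENSMUSG00000003153, chromosome 6, 122704768 to 122778599, minus strand) was at 2717 and 2810 CPM in naïve ESCs, 194 and 188 in EpiLCs, 854 and 893 in early gastruloids and 647 and 673 in late gastruloids. All 4 groups were apart, with EpiLCs lowest. Slc2a3 fell by 3.86 ± 0.05 from naïve ESCs to EpiLCs (edgeR adjusted p = 3.23e-53), 14.5-fold, and was 4.58-fold higher in early gastruloids than in EpiLCs (log2 fold change 2.19 ± 0.05, edgeR adjusted p = 1.17e-41).

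The hexokinases HK1 and HK2, which phosphorylate glucose, moved in opposite directions between the H9 states. HK1 (ENSG00000156515, chromosome 10, 69269984 to 69401884, plus strand) was at 162 and 158 CPM in naïve H9, 587 and 564 in primed H9, 211 and 230 in RUES2-GLR, 427 and 420 in early RA-gastruloids, and 97.8 and 87.2 in late ones. HK2 (ENSG00000159399, chromosome 2, 74834127 to 74893359, plus strand) was at 267 and 251 CPM in naïve H9, 124 and 123 in primed H9, 185 and 159 in RUES2-GLR, 533 and 543 in early RA-gastruloids, and 73.9 and 73.5 in late ones. The groups did not overlap for either gene: HK1 was highest in primed H9 ESCs, HK2 in early RA-gastruloids, and both were lowest in late RA-gastruloids. From naïve to primed H9 ESCs HK1 rose by 1.84 ± 0.10 (edgeR adjusted p = 1.37e-16) and HK2 fell by 1.07 ± 0.10 (edgeR adjusted p = 6.57e-11). In early RA-gastruloids HK2 was 3.11-fold above its level in RUES2-GLR ESCs (log2 fold change 1.64 ± 0.11, edgeR adjusted p = 2.04e-14), while HK1 differed by 0.95 ± 0.10, under the fold threshold. From early to late RA-gastruloids HK2 fell 7.30-fold and HK1 4.56-fold. A pseudogene, HK2P1, shares 8.37% of the 50-base stretches of HK2.

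In mouse, Hk1 and Hk2 were both highest in the naïve state. Hk1 (ENSMUSG00000037012, chromosome 10, 62104634 to 62215687, minus strand) was at 188 and 180 CPM in naïve ESCs, 77.0 and 76.7 in EpiLCs, 91.9 and 91.3 in early gastruloids and 49.96 and 53.8 in late gastruloids. Hk2 (ENSMUSG00000000628, chromosome 6, 82702006 to 82751435, minus strand) was at 635 and 661 CPM in naïve ESCs, 309 and 340 in EpiLCs, 278 and 295 in early gastruloids and 127 and 139 in late gastruloids. Late gastruloids were lowest for both genes, and no groups overlapped. From naïve ESCs to EpiLCs Hk1 fell by 1.26 ± 0.07 (edgeR adjusted p = 1.24e-24), and Hk2 differed by -0.995 ± 0.05 (edgeR adjusted p = 3.29e-24), just short of the fold threshold. Hk2 fell by 1.11 ± 0.06 from early to late gastruloids (edgeR adjusted p = 6.88e-25).

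Phosphofructokinase is a tetramer whose subunits come from PFKP, PFKL and the muscle-type PFKM. Human PFKP (ENSG00000067057, chromosome 10, 3066333 to 3137718, plus strand) was at 308 and 336 CPM in naïve H9, 202 and 206 in primed H9, 67.2 and 66.0 in RUES2-GLR, 73.6 and 73.6 in early RA-gastruloids, and 12.1 and 8.46 in late ones. PFKL (ENSG00000141959, chromosome 21, 44300051 to 44327376, plus strand) was at 833 and 943 CPM in naïve H9, 189 and 195 in primed H9, 148 and 172 in RUES2-GLR, 304 and 314 in early RA-gastruloids, and 234 and 181 in late ones. Both genes were highest in naïve H9 ESCs, but PFKP was lowest in late RA-gastruloids, 31.4-fold below the naïve level, while PFKL stayed within the range of the primed ESCs and early RA-gastruloids, with late RA-gastruloids overlapping primed H9 ESCs. PFKL fell by 2.21 ± 0.12 from naïve to primed H9 ESCs (edgeR adjusted p = 4.00e-17). PFKP fell by 2.79 ± 0.14 from early to late RA-gastruloids (edgeR adjusted p = 2.68e-17), where PFKL differed by -0.57 ± 0.11, under the fold threshold. PFKM was at 23.4 and 19.2 CPM in naïve H9 and 125 and 128 in primed H9, a rise of 2.57 ± 0.12 (edgeR adjusted p = 4.36e-18), and at 123 and 105.1 CPM in late RA-gastruloids.

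Mouse Pfkp showed the widest range of the 10 mouse genes. Pfkp (ENSMUSG00000021196, chromosome 13, 6629804 to 6698813, minus strand) was at 426 and 442 CPM in naïve ESCs, 68.9 and 64.5 in EpiLCs, 229 and 222 in early gastruloids and 17.9 and 17.9 in late gastruloids. Pfkl (ENSMUSG00000020277, chromosome 10, 77822781 to 77845917, minus strand) was at 445 and 451 CPM in naïve ESCs, 443 and 498 in EpiLCs, 644 and 653 in early gastruloids and 300 and 317 in late gastruloids. All 4 groups were apart for Pfkp, and for Pfkl naïve ESCs and EpiLCs overlapped. Pfkp fell by 2.71 ± 0.06 from naïve ESCs to EpiLCs (edgeR adjusted p = 5.07e-42) and by 3.66 ± 0.08 from early to late gastruloids (edgeR adjusted p = 1.77e-43). Pfkl fell by 1.07 ± 0.05 at the latter step (edgeR adjusted p = 3.25e-26). Pfkp shares 748 of its 13401 exon bases with the opposite-strand gene Pitrm1, where reads were left out by default. The muscle-type Pfkm varied less, between 82.4 and 123 CPM over all 8 samples.

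PFKFB3, the bifunctional enzyme that raises fructose 2,6-bisphosphate, stood out in a single human group. PFKFB3 (ENSG00000170525, chromosome 10, 6144934 to 6254644, plus strand) was at 33.3 and 36.2 CPM in naïve H9, 39.9 and 43.1 in primed H9, 49.1 and 50.02 in RUES2-GLR, 287 and 287 in early RA-gastruloids, and 52.1 and 47.0 in late ones. Early RA-gastruloids were 5.79-fold above primed RUES2-GLR ESCs (log2 fold change 2.53 ± 0.12, edgeR adjusted p = 7.20e-18), and late RA-gastruloids overlapped primed RUES2-GLR ESCs. Mouse Pfkfb3 (ENSMUSG00000026773, chromosome 2, 11476244 to 11558888, minus strand) was at 25.7 and 27.5 CPM in naïve ESCs, 22.9 and 23.0 in EpiLCs, 31.3 and 27.7 in early gastruloids and 20.7 and 24.0 in late gastruloids. Its highest group was 1.32 times its lowest, and Pfkfb3 was not called at any mouse step.

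**Figure D1:**
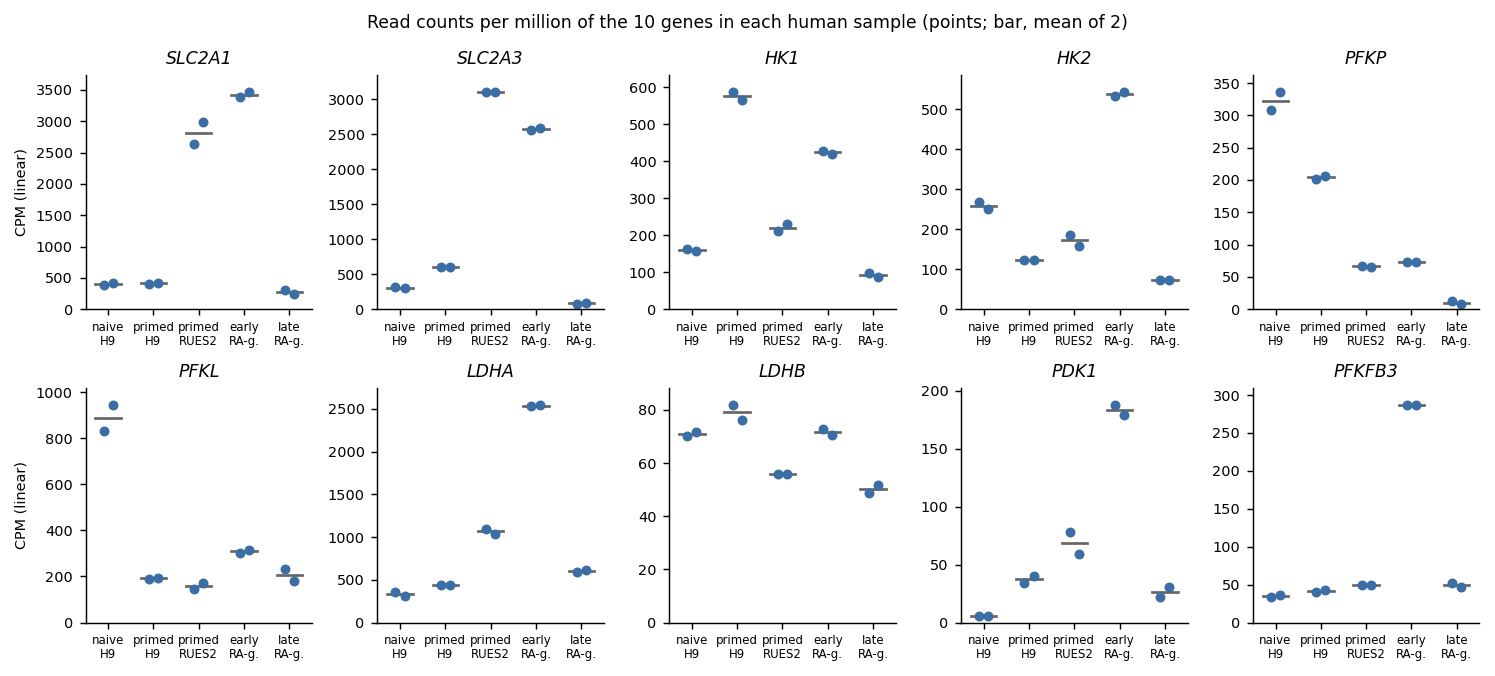
CPM (TMM-scaled counts, linear axes from 0) of the 10 genes in each of the 10 human samples; points are replicates and bars the means of 2. SLC2A1, HK2, LDHA, PDK1 and PFKFB3 peak in early RA-gastruloids (PFKFB3 at 287 CPM in both replicates), and LDHB spans only a 1.58-fold range.

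Lactate dehydrogenase is a tetramer of LDHA and LDHB subunits, and in human cells LDHA had the wider range. LDHA (ENSG00000134333, chromosome 11, 18394560 to 18408425, plus strand) was at 352 and 311 CPM in naïve H9, 439 and 434 in primed H9, 1090 and 1041 in RUES2-GLR, 2535 and 2543 in early RA-gastruloids, and 592 and 611 in late ones. LDHB (ENSG00000111716, chromosome 12, 21635342 to 21757857, minus strand) was at 70.3 and 71.8 CPM in naïve H9, 81.8 and 76.4 in primed H9, 55.9 and 56.1 in RUES2-GLR, 72.7 and 70.4 in early RA-gastruloids, and 48.7 and 51.7 in late ones. All 5 groups were apart for LDHA, whose highest mean was 7.66 times its lowest, and LDHB was not called at any human step. LDHA rose by 1.29 ± 0.10 between the primed lines (edgeR adjusted p = 1.32e-12) and by 1.25 ± 0.10 into early RA-gastruloids (edgeR adjusted p = 1.87e-12), then fell by 2.08 ± 0.10 (edgeR adjusted p = 1.71e-17). LDHB shares 997 of its 2983 exon bases with a same-strand gene, ENSG00000285854. By default featureCounts leaves out reads that overlap both genes, so the LDHB counts come from the remaining bases.

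In mouse the wider range was that of Ldhb. Ldha (ENSMUSG00000063229, chromosome 7, 46490899 to 46505051, plus strand) was at 1479 and 1537 CPM in naïve ESCs, 1764 and 1724 in EpiLCs, 1135 and 1145 in early gastruloids and 633 and 635 in late gastruloids. Ldhb (ENSMUSG00000030246, chromosome 6, 142435975 to 142453683, minus strand) was at 290 and 301 CPM in naïve ESCs, 113 and 99.5 in EpiLCs, 459 and 462 in early gastruloids and 190 and 187 in late gastruloids. EpiLCs held the highest Ldha and the lowest Ldhb, and no groups overlapped for either gene. Ldhb fell by 1.49 ± 0.06 from naïve ESCs to EpiLCs (edgeR adjusted p = 2.34e-30), was 4.38-fold higher in early gastruloids than in EpiLCs (edgeR adjusted p = 7.09e-38) and fell by 1.29 ± 0.06 from early to late gastruloids (edgeR adjusted p = 9.18e-29). Ldha was not called at any mouse step, its largest change being -0.85 ± 0.05 from early to late gastruloids.

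PDK1, a kinase that inhibits pyruvate dehydrogenase, was called in every human comparison apart from that of the primed lines. PDK1 (ENSG00000152256, chromosome 2, 172555373 to 172608669, plus strand) was at 5.43 and 5.91 CPM in naïve H9, 34.5 and 40.5 in primed H9, 78.0 and 59.3 in RUES2-GLR, 188 and 179 in early RA-gastruloids, and 22.4 and 30.7 in late ones. All 5 groups were apart, early RA-gastruloids highest and naïve H9 ESCs lowest. Strand was not used in counting, and 445 of its 14845 exon bases lie opposite the antisense gene PDK1-AS1. PDK1 rose by 2.73 ± 0.16 from naïve to primed H9 ESCs (edgeR adjusted p = 7.29e-16) and by 1.38 ± 0.14 into early RA-gastruloids (edgeR adjusted p = 3.21e-10), then fell by 2.81 ± 0.14 (edgeR adjusted p = 5.22e-17). Mouse Pdk1 (ENSMUSG00000006494, chromosome 2, 71703568 to 71734202, plus strand) was at 65.6 and 64.4 CPM in naïve ESCs, 166 and 164 in EpiLCs, 307 and 318 in early gastruloids and 54.3 and 51.5 in late gastruloids. It had the same order of stages in mouse from naïve to early, with no overlap between groups, and late gastruloids were lowest. Pdk1 rose by 1.34 ± 0.07 from naïve ESCs to EpiLCs (edgeR adjusted p = 5.24e-26) and fell by 2.56 ± 0.07 from early to late gastruloids (edgeR adjusted p = 1.32e-39).

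**Figure D2:**
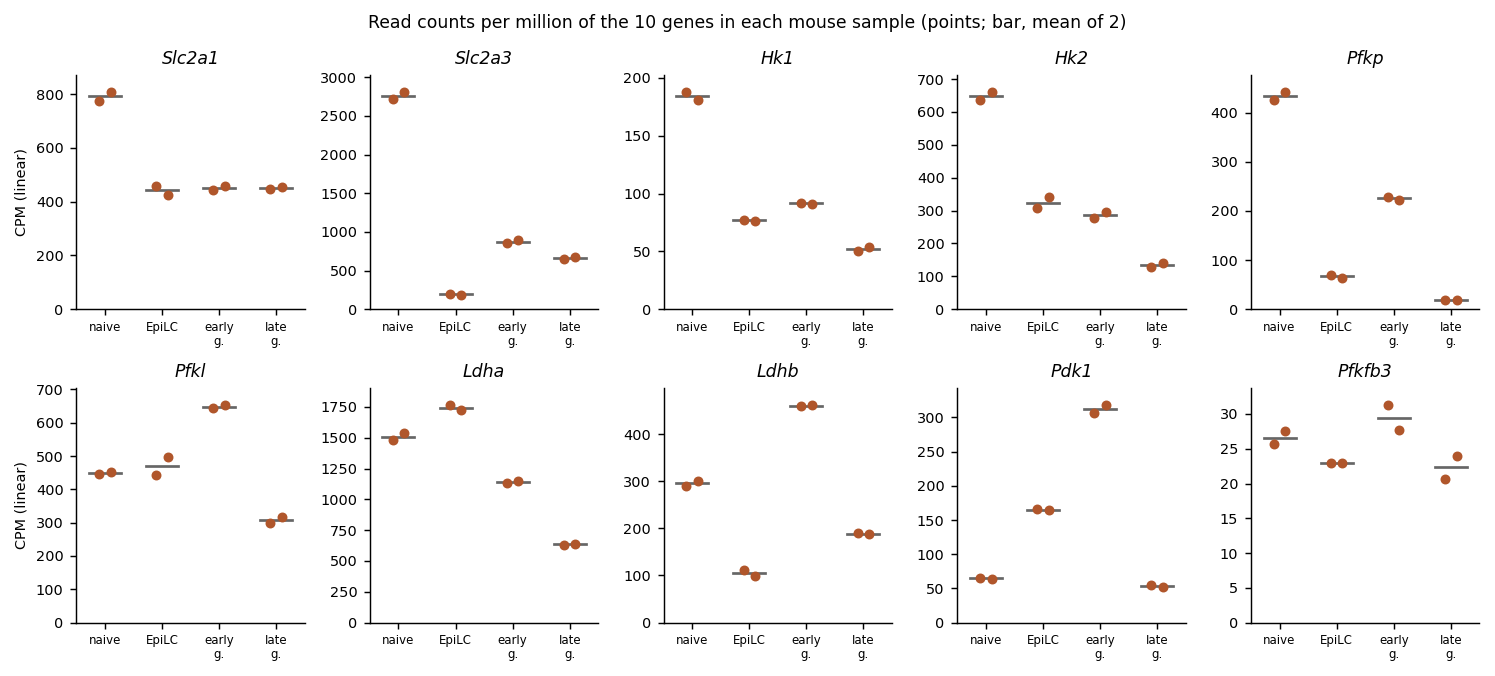
CPM (TMM-scaled counts, linear axes from 0) of the same 10 genes in each of the 8 mouse samples; points are replicates and bars the means of 2. Slc2a1, Slc2a3, Hk1, Hk2 and Pfkp are highest in naïve ESCs, Pdk1 climbs to 307 and 318 CPM in early gastruloids, and 7 of the 10 genes are lowest in late gastruloids.

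The balance within each pair was taken as the share of 1 gene in the summed reads per kb of exon of both genes, within each sample, so that it needs no scaling between libraries. The hexokinase balance turned over in human: HK2 made up 65.7% and 64.8% in naïve H9, 19.7% and 20.2% in primed H9, 50.4% and 44.5% in primed RUES2-GLR ESCs, 59.2% and 60.1% in early RA-gastruloids and 46.8% and 49.5% in late RA-gastruloids. Mouse Hk2 stayed the larger share, from 78.6% ± 0.223 (SD, n = 2) in late gastruloids to 85.7% ± 0.885 in EpiLCs. The SLC2A3 share of the transporter pair was 45.9% ± 2.29 in naïve H9, 61.5% ± 0.703 in primed H9, 54.7% ± 2.18 in primed RUES2-GLR, 45.2% and 44.8% in the replicates of early RA-gastruloids and 25.0% ± 4.33 in late RA-gastruloids. Late RA-gastruloids thus had the lowest share of GLUT3, with the widest replicate spread of any group. In mouse the minimum was in EpiLCs, at 17.3% ± 0.455, against 62.8% ± 0.119 in naïve ESCs, 48.5% ± 0.225 in early and 41.4% ± 0.461 in late gastruloids.

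The phosphofructokinase balance reached its lowest PFKP share in late gastruloids of both species. In human PFKP made up 29.4% ± 0.533 in naïve H9, 54.9% ± 0.235 in primed H9, 32.5% ± 2.65 in primed RUES2-GLR, 21.5% ± 0.381 in early and 5.37% ± 0.337 in late RA-gastruloids, where PFKL was 17.6-fold above PFKP. In mouse Pfkp made up 32.6% ± 0.351 in naïve ESCs, 6.63% ± 0.799 in EpiLCs, 14.8% ± 0.378 in early and 2.81% ± 0.105 in late gastruloids. Primed H9 ESCs were the human maximum for PFKP, whereas mouse EpiLCs had the second lowest mouse share. The LDHA share was 69.7% ± 2.16 in naïve H9, 73.2% ± 0.815 in primed H9, 90.4% ± 0.310 in primed RUES2-GLR, 94.6% ± 0.127 in early and 85.5% ± 0.248 in late RA-gastruloids. Mouse Ldha made up 70.8% ± 0.0599 in naïve ESCs, 88.6% ± 0.724 in EpiLCs, 54.0% ± 0.0543 in early and 61.5% ± 0.279 in late gastruloids. Early gastruloids had the highest LDHA share of the human groups and the lowest of the mouse groups.

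**Figure D3:**
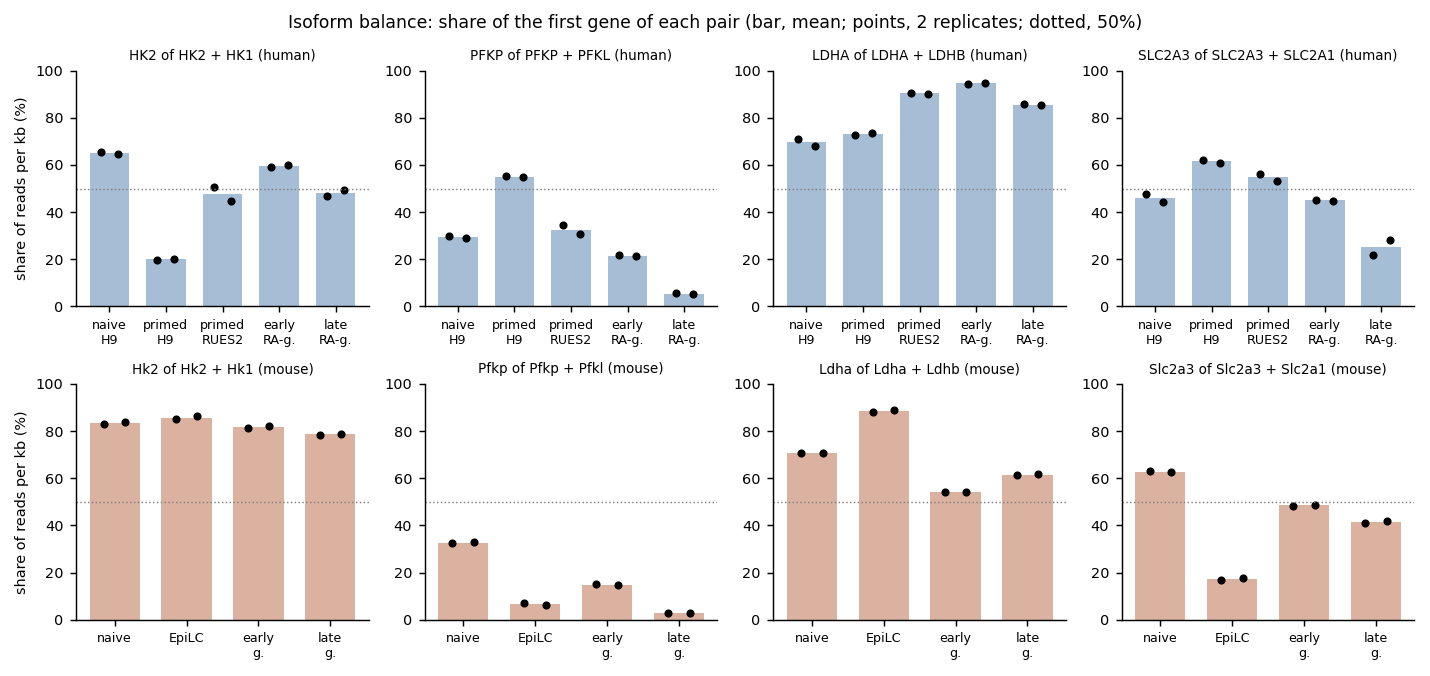
Share (%) of the first gene in the summed reads per kb of each pair, by group, in human (top) and mouse (bottom); bars are means of 2 replicates, points the replicates, and the dotted line marks 50%. PFKP falls to 5.37% in late RA-gastruloids and Pfkp to 2.81% in late mouse gastruloids, and LDHA stands at 94.6% in early RA-gastruloids against 54.0% in early mouse gastruloids.

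Across groups the log2 ratio of each pair differed by more than the replicates did. The exact permutation test over all 945 arrangements of the 10 human samples gave p = 0.00317 for HK2/HK1, 0.00106 for PFKP/PFKL, 0.00106 for LDHA/LDHB and 0.00317 for SLC2A3/SLC2A1 (adjusted over 8 tests, 0.00635, 0.00423, 0.00423 and 0.00635), where 0.00106 is the smallest that design allows. In mouse all 4 pairs gave an exact permutation p of 0.00952, the smallest that the 8 samples allow. The group means spanned 2.91, 4.43, 2.93 and 2.27 on the log2 scale in human, and 0.72, 4.06, 2.73 and 3.01 in mouse, in the same order of pairs. A single step of 2 against 2 samples could not go below an exact p of 0.333 and was not tested. The gene length used changes the shares and the size of their differences between groups, whereas differences of the log2 ratio between groups do not depend on it. With the length of the canonical transcript in place of all exons, HK2 made up 50.8% in naïve H9 ESCs and 44.9% in early RA-gastruloids, SLC2A3 49.5% in primed RUES2-GLR ESCs, and Slc2a3 68.6% in early and 62.1% in late mouse gastruloids, so which gene of these pairs exceeds 50% depends on the length used. For mouse Slc2a1 and Hk2 the canonical transcript (4445 and 7796 bases) was longer than the exons counted (3506 and 5969 bases). Mouse transporter and hexokinase shares with that length thus also include bases on which no reads were counted. Several shares moved by more than 1.5 times with that length: HK2 in primed H9 ESCs went from the 19.7% and 20.2% above to a mean of 12.1%, Slc2a3 in EpiLCs from 17.3% to 32.7%, and Pfkp from 6.63% to 11.9% in EpiLCs, from 14.8% to 24.9% in early and from 2.81% to 5.24% in late gastruloids. Ldha in early mouse gastruloids went from 54.0% to 70.5%. With the exon bases shared with the other gene left out of the LDHB length, LDHA made up 60.5% in naïve H9 ESCs and 92.1% in early RA-gastruloids.

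By step, the genes split most unevenly between early and late RA-gastruloids. There 8 of 10 were called lower and 0 higher, against 13.2% of the 18300 tested genes called lower, 11.8% called higher and 24.9% in either direction. The 8 were SLC2A1, SLC2A3, HK1, HK2, PFKP, LDHA, PDK1 and PFKFB3, with PFKL and LDHB the exceptions. The median over the 10 genes was -2.66, beside 0.00 for all tested genes. In early RA-gastruloids compared with RUES2-GLR ESCs 4 were called higher (HK2, LDHA, PDK1 and PFKFB3) and 0 lower, against 12.0% and 17.6% of all genes, or 29.6% in either direction. In late RA-gastruloids compared with RUES2-GLR ESCs 6 were called lower (SLC2A1, SLC2A3, HK1, HK2, PFKP and PDK1) and 0 higher, against 21.0% and 17.3%, or 38.3%. These 3 comparisons share samples. By adjusted p alone, at any fold, all 10 genes passed from early to late (52.0% of all genes), 9 into early RA-gastruloids (55.8%) and 8 between RUES2-GLR ESCs and late RA-gastruloids (63.6%).

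Naïve and primed H9 ESCs differed in 4 of the 10 genes. HK1 and PDK1 were higher in primed cells, against 25.5% of all genes, and HK2 and PFKL lower, against 22.3%. Of all genes 47.8% were called in either direction, so the share among the 10 genes was near the background. By adjusted p alone 8 passed, against 75.3%. The fibroblast marker DCN was at 8.05 and 6.20 CPM in naïve H9 and at 0 in primed H9. All 6 fibroblast markers (COL1A1, COL1A2, COL3A1, DCN, LUM and POSTN) summed to 665 to 686 CPM in naïve H9 and 267 to 276 CPM in primed H9 ESCs, and the part of feeder or fibroblast RNA in these values was not tested.

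The primed lines, which stand for 1 stage, differed in 5 genes. SLC2A1, SLC2A3 and LDHA were higher in RUES2-GLR than in H9, against 17.1% of all genes, and HK1 and PFKP lower, against 12.2% (29.3% in either direction). By adjusted p alone 9 passed, against 58.5%. The median of all tested genes was -0.12 in this comparison and 0.00 with DESeq2's size factors, under which the 5 genes kept their calls and directions and PDK1, at 0.90 ± 0.14 with TMM, was also called, at 1.05. The summed CPM per kb of the 10 genes was 423 and 422 in primed H9, 1208 and 1254 in RUES2-GLR, 400.1 and 408 in naïve H9, 1632 and 1651 in early RA-gastruloids, and 238 and 226 in late ones. Most of the RUES2-GLR sum came from SLC2A1, SLC2A3 and LDHA, with means of 424, 511 and 176 CPM per kb. HK1, PFKP, PFKL and LDHB had lower means in RUES2-GLR than in primed H9 ESCs. Cell line and collection batch cannot be told apart in this comparison.

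In mouse 5 genes were called from naïve ESCs to EpiLCs. Pdk1 was higher, against 17.7% of the 15003 tested genes, and Slc2a3, Hk1, Pfkp and Ldhb were lower, against 12.1% (29.8% in either direction). Early gastruloids had 3 genes higher than EpiLCs (Slc2a3, Pfkp and Ldhb), against 11.7%, and 0 lower, against 9.24% (20.9% in either direction). These 3 were among the genes lower in EpiLCs than in naïve ESCs, and since both comparisons use the EpiLC samples their opposite signs are not independent. Compared with naïve ESCs, from which the gastruloids were grown, early gastruloids had Pdk1 higher by 2.27 ± 0.06 (edgeR adjusted p = 3.01e-37), against 16.2% of all genes, and Slc2a3, Hk1 and Hk2 lower, against 6.81% (23.0% in either direction). The Hk1 call was at the fold threshold and was lost in 4 alternatives, at -0.957 with upper quartile normalization, -0.970 without the filter on low counts, -0.997 with the compared groups only and -0.981 without naïve replicate 1. From early to late gastruloids Hk2, Pfkp, Pfkl, Ldhb and Pdk1 fell, against 19.1%, and 0 rose, against 20.1% (39.2% in either direction). By adjusted p alone, 8 genes passed from naïve ESCs to EpiLCs (66.0% of all genes), 9 from EpiLCs to early (62.7%), 9 from early to late (76.1%) and 9 from naïve ESCs to early gastruloids (63.0%). The summed CPM per kb of the 10 genes was 1467 and 1519 in naïve ESCs, 919 and 901 in EpiLCs, 1094 and 1113 in early gastruloids, and 612 and 622 in late ones.

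Human and mouse steps were compared directly through interaction terms of a joint edgeR model, with the 18 samples and 14006 genes matched by symbol; its estimate of a difference can depart slightly from the subtraction of the values fitted per species. From early to late, 7 of the 10 genes were called different between species, against 35.4% of matched genes. PFKL and LDHB passed by adjusted p alone, with mouse minus human differences of -0.64 ± 0.13 and -0.92 ± 0.12 (edgeR adjusted p = 8.16e-05 and 7.03e-08). At any fold, 8305 of the 14006 matched genes passed by adjusted p at this step. SLC2A3 had the largest difference, with log2 fold changes of -4.94 in human and -0.40 in mouse, and SLC2A1 the next, at -3.63 and 0.0075. PDK1 fell at this step in both, by 2.81 in human and 2.56 in mouse, and the difference was 0.11 ± 0.17 (edgeR adjusted p = 0.578). From naïve to primed, 6 genes were called different, against 42.1% of matched genes. HK1 rose by 1.84 in human and fell by 1.26 in mouse, and PFKL fell by 2.21 in human while mouse Pfkl was at 0.075. SLC2A1 and PFKFB3 passed by adjusted p alone (edgeR adjusted p = 2.81e-07 and 0.0355), beside 8994 of the 14006 matched genes at any fold. From primed to early, 6 genes were called different, against 32.6%, with PFKFB3 at 2.53 in human and 0.37 in mouse and SLC2A3 at -0.27 in human and 2.19 in mouse. HK1 and PFKL passed by adjusted p alone (edgeR adjusted p = 7.94e-05 and 0.0133), beside 7798 of the 14006 matched genes at any fold. The stages carry the same names, but the protocols differed. Human early gastruloids were taken 24 h after aggregation of primed ESCs that had been pre-treated with CHIR and retinoic acid. Mouse early gastruloids were taken at day 3 from naïve ESCs, so species and protocol cannot be told apart.

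**Figure D4:**
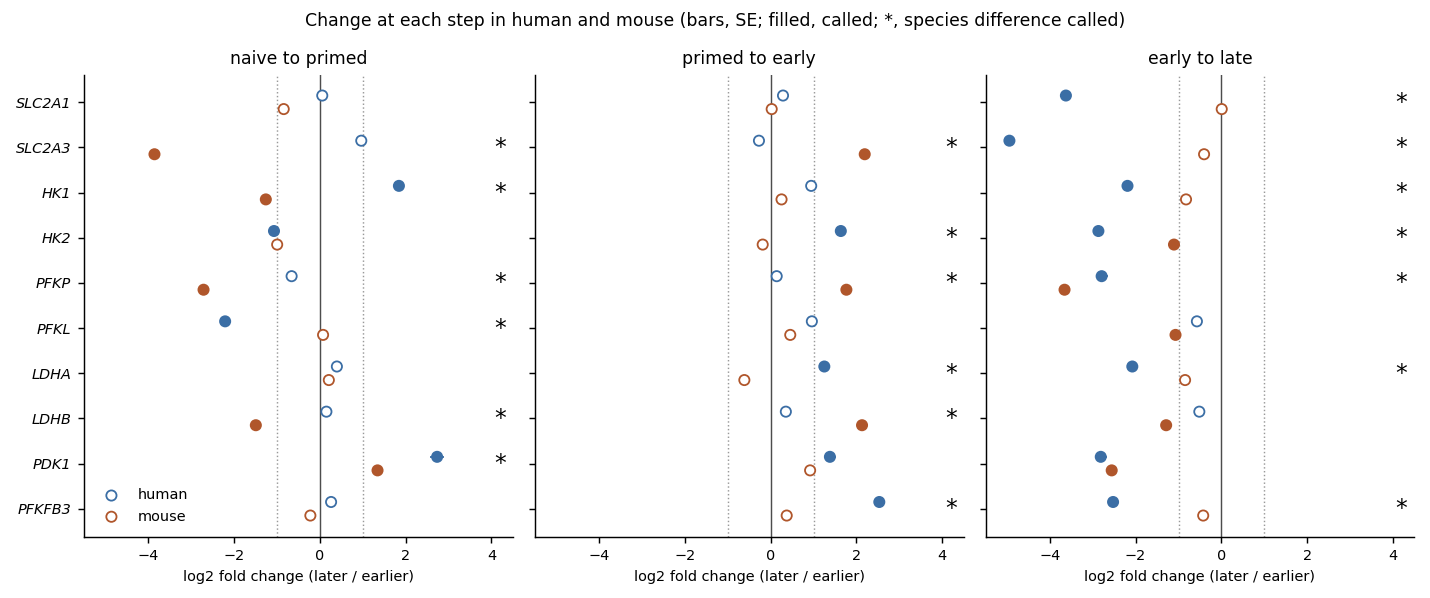
log2 fold change of each gene at 3 steps (later over earlier stage) in human (blue) and mouse (brown); bars are SE, filled points were called, dotted lines mark the fold threshold, and stars mark genes whose difference between species was called. SLC2A1 sits at -3.63 in human and 0.0075 in mouse from early to late, and PDK1 lies at -2.81 and -2.56.

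In all, 5 lists of related genes were described alongside, none of which includes the 10 genes. Of 16 tested hypoxia targets outside glycolysis (such as VEGFA, ADM and BNIP3), 1 was higher and 6 lower in primed than in naïve H9 ESCs, where 25.5% of all genes were called higher and 22.3% lower (median log2 fold change of the list -0.53, against 0.0048 for all genes). Between the primed lines 11 were higher and 0 lower in RUES2-GLR, against 17.1% and 12.2% of all genes (1.69 against -0.12). In early RA-gastruloids 8 were higher and 1 lower than in RUES2-GLR ESCs, against 12.0% and 17.6% (1.02 against 0.08). In late compared with early RA-gastruloids 14 were lower and 0 higher, against 13.2% lower and 11.8% higher (-2.72 against 0.00). In mouse 5 of 14 were higher and 1 lower in EpiLCs than in naïve ESCs, against 17.7% and 12.1% (0.49 against 0.018), and 1 was higher and 2 lower in early gastruloids than in EpiLCs, against 11.7% and 9.24% (-0.27 against 0.013). Compared with naïve ESCs, from which they were grown, early mouse gastruloids had 6 higher and 0 lower, against 16.2% and 6.81% (0.49 against 0.034). In late compared with early mouse gastruloids 5 were lower and 1 higher, against 19.1% lower and 20.1% higher, or 39.2% in either direction (-0.15 against -0.030). BNIP3, a mitophagy receptor called in all 5 human comparisons, was at 83.0 and 86.3 CPM in naïve H9, 28.9 and 29.8 in primed H9, 154 and 129 in RUES2-GLR, 456 and 473 in early RA-gastruloids, and 55.3 and 55.8 in late ones. BHLHE40, a circadian and hypoxia-responsive repressor, had the largest change in the list: it fell by 7.63 ± 0.20 from early to late RA-gastruloids (edgeR adjusted p = 3.43e-24), where it was at 0.63 and 1.12 CPM. In mouse the largest was also Bhlhe40, which fell by 3.68 ± 0.13 at that step (edgeR adjusted p = 1.34e-32).

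The list of hypoxia factors held 3 genes, HIF1A, EPAS1 and ARNT. HIF1A was at 159 and 127 CPM in primed RUES2-GLR ESCs, 145 and 154 in early RA-gastruloids, and 102 and 126 in late ones, and none of the 3 was called from early to late. Compared with RUES2-GLR ESCs, 1 of the 3 was higher and 0 lower in early RA-gastruloids, against 12.0% and 17.6% of all genes. In late RA-gastruloids 1 was higher and 0 lower than in RUES2-GLR ESCs, against 17.3% and 21.0%. Between the primed lines 0 were higher and 1 lower in RUES2-GLR, against 17.1% and 12.2%. In mouse 1 was higher and 0 lower in early gastruloids than in EpiLCs, against 11.7% and 9.24%. From naïve to primed H9 ESCs 1 of the 3 was higher and 1 lower, against 25.5% and 22.3% of all genes. The lower gene was EPAS1, which encodes HIF2α. EPAS1 fell by 3.37 ± 0.15 (edgeR adjusted p = 4.26e-19), from 56.2 and 62.2 CPM to 6.08 and 5.50 CPM. Protein stability, the main level at which these factors are controlled, was not measured in these files.

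Among 16 tested other glycolytic enzymes, 4 were higher and 4 lower in primed than in naïve H9 ESCs, against 25.5% and 22.3% of all genes (median -0.56), and 2 were higher and 3 lower in RUES2-GLR than in primed H9 ESCs, against 17.1% and 12.2% (median -0.14). In early RA-gastruloids 6 were higher and 3 lower than in RUES2-GLR ESCs, against 12.0% and 17.6% (median 0.97). Late RA-gastruloids had 10 lower than early ones and 1 higher, against 13.2% lower and 11.8% higher (median -1.24). In mouse 3 of 15 were higher and 1 lower from naïve ESCs to EpiLCs, against 17.7% and 12.1% (median 0.027), and 1 was higher and 2 lower from EpiLCs to early gastruloids, against 11.7% and 9.24% (median 0.016). From early to late mouse gastruloids 7 were lower and 2 higher, against 19.1% lower and 20.1% higher (median -0.88). Eno3, the muscle enolase, had the largest mouse change, 4.28 ± 0.12 (edgeR adjusted p = 3.36e-38), from 3.95 and 5.28 to 87.4 and 85.5 CPM. Among 14 tested genes of other glucose and lactate transport, 5 were higher and 4 lower in primed than in naïve H9 ESCs, against 25.5% and 22.3% of all genes (median 0.55), and 10 were higher and 0 lower in primed RUES2-GLR than in primed H9 ESCs, against 17.1% and 12.2% (median 2.00). In early RA-gastruloids 3 were higher and 8 lower than in RUES2-GLR ESCs, against 12.0% and 17.6% (median -1.26), and from early to late 5 were lower and 0 higher, against 13.2% lower and 11.8% higher (median -0.41). In mouse 9 genes of this list were tested: 5 were higher and 1 lower from naïve ESCs to EpiLCs, against 17.7% and 12.1%, 0 higher and 1 lower from EpiLCs to early gastruloids, against 11.7% and 9.24%, and 3 higher and 3 lower from early to late, against 20.1% and 19.1%. SLC16A3, the lactate exporter MCT4, was called in all 5 human comparisons and stood at 80.8 and 89.8 CPM in naïve H9, 7.13 and 7.67 in primed H9, 171 and 212 in RUES2-GLR, 718 and 709 in early RA-gastruloids, and 23.1 and 15.8 in late ones. Mouse Slc16a3 was highest in EpiLCs, at 587 and 574 CPM, against 137 and 138 in naïve ESCs, 172 and 179 in early and 50.8 and 61.8 in late gastruloids. Of 16 regulators of pyruvate entry and fructose 2,6-bisphosphate tested in human, 2 were higher and 5 lower from naïve to primed H9 ESCs, against 25.5% and 22.3% of all genes, 1 higher and 1 lower between the primed lines, against 17.1% and 12.2%, and 2 higher and 1 lower in early RA-gastruloids than in RUES2-GLR ESCs, against 12.0% and 17.6%. Late RA-gastruloids had 5 lower than early ones and 0 higher (median -0.60), against 13.2% lower and 11.8% higher, or 24.9% in either direction. In mouse 2 of 18 were higher and 5 lower from naïve ESCs to EpiLCs, against 17.7% and 12.1%, and 4 higher and 1 lower from EpiLCs to early gastruloids, against 11.7% and 9.24%. From early to late mouse gastruloids 7 were lower and 2 higher, against 19.1% and 20.1% (39.2% in either direction).

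**Figure D5:**
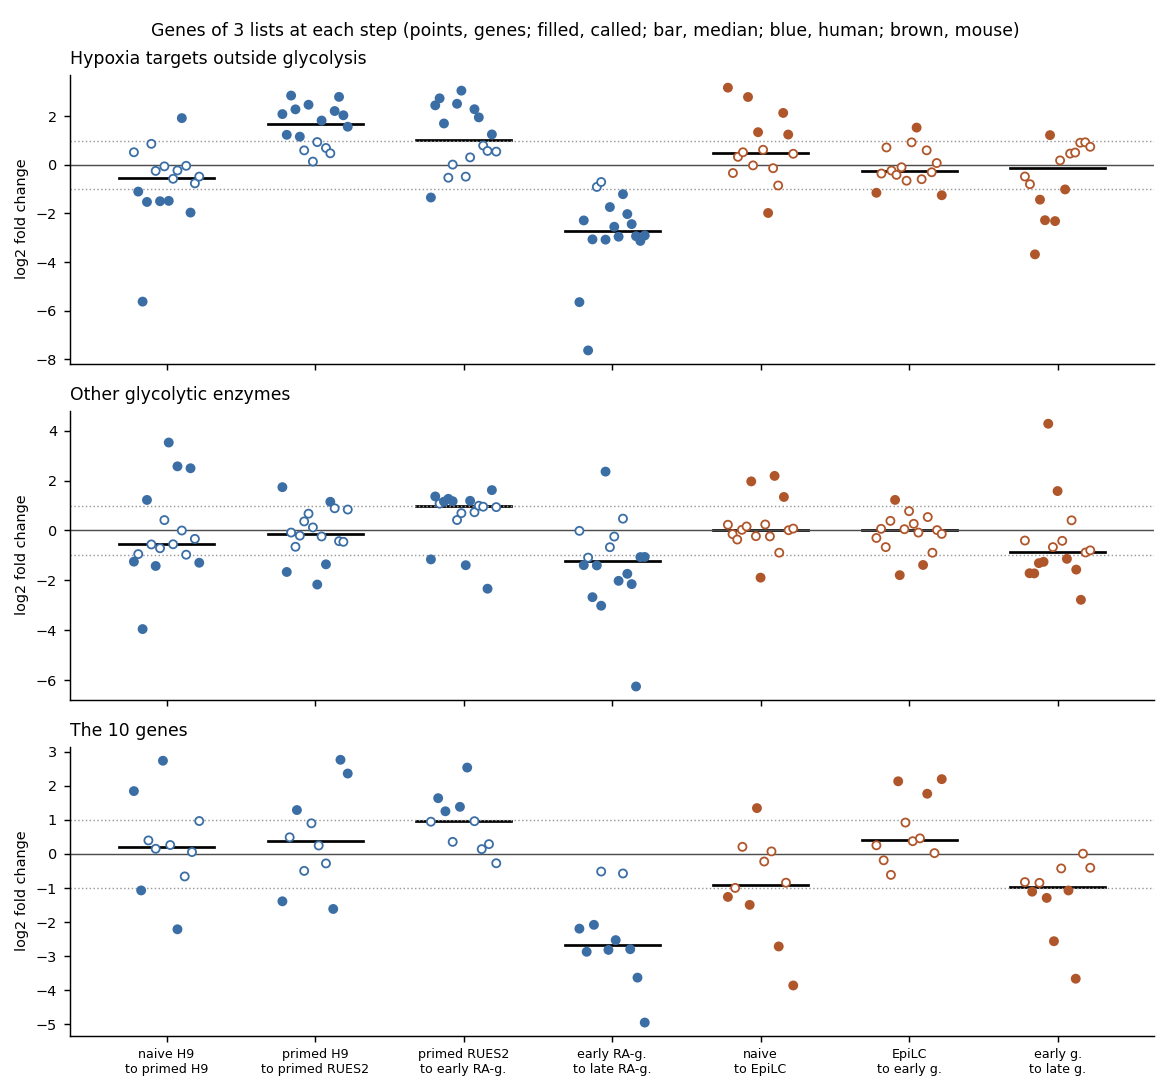
log2 fold change of every tested gene of 2 of the lists (hypoxia targets outside glycolysis, other glycolytic enzymes) and of the 10 genes at 4 human (blue) and 3 mouse (brown) steps; filled points were called and black bars are medians. The median of the hypoxia targets moves from 1.69 between the primed lines to -2.72 from early to late RA-gastruloids, beside -2.66 for the 10 genes.

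The genes whose levels followed those of the members most closely were ranked, as a description, by the smaller of Pearson's r of log2 CPM over the 10 human and the 8 mouse samples, among 9106 genes expressed in both. These values describe samples that fall into pairs of replicates and share their libraries. HK2 was followed most closely by PGK1, an ATP-yielding enzyme of glycolysis (r = 0.972 in human and 0.918 in mouse), and LDHA by NPM1 (0.974 and 0.982) and PGAM1, phosphoglycerate mutase (0.985 and 0.923). PFKP was closest to RPS6KA1 (0.983 and 0.985), PFKL to IGBP1 (0.980 and 0.949), HK1 to AIFM1 (0.950 and 0.976) and PDK1 to EIF4A2 (0.971 and 0.958). SLC2A3 was closest to KDELR3 (0.975 and 0.935), SLC2A1 to TRAM2 (0.904 and 0.934) and PFKFB3 to SLC25A36 (0.918 and 0.900).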

How the data were processed

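The authors deposited 1 table of whole-number read counts per gene for each species, with no normalization. Per the paper's methods and the submitters' processing notes, poly(A) libraries (a kit that does not mark strand) were read in 1 of 2 paired configurations, and which sample had which is not given in the sources used here. Reads were trimmed (Trimmomatic 0.39), mapped by STAR on GRCh38 for human or GRCm39 for mouse, and assigned by featureCounts with its defaults, which ignore strand and leave out reads that map to several places or overlap several genes. The annotation release is not given in the sources used here.

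Symbols came from GENCODE (release 44, 44876 of 44910 human genes matched; mouse release M39, 29486 of 29720). Counts were tested with edgeR 4.0.16 (TMM, filterByExpr, quasi-likelihood test, 1 fit per species over all groups, Benjamini-Hochberg adjustment over 18300 human and 15003 mouse genes). All 10 genes passed the filter in both species. Isoform ratios used counts plus 0.5, per kb of exon, and an exact permutation test over samples (Python 3.11.15, scipy 1.17.1). The code was checked on simulated data. Alternatives were DESeq2 1.42.0, other scalings, no filter, compared groups only, a replicate block, leaving out each replicate and, chosen after seeing the data, other gene lengths. The 10 genes and the lists were chosen with earlier results of these data known. Named genes were the 10 genes, the 2 genes closest to each in pattern (the closer is given, and PGAM1) and, from the lists, those called in at least 0.5 of the comparisons or with the largest called change. Among these, the genes called in all 5 human comparisons and Slc16a3 were picked after their values were seen, as were PFKM, Pfkm, SLC2A14 and HIF1A. Promoters came from RefSeq (GRCh38.p14), and shared stretches were 50-base words of GENCODE transcripts. A count of 3 corresponded to 0.0774 to 0.815 CPM in human and 0.150 to 0.462 CPM in mouse libraries, and covers counting error only. The gene whose levels ranked closest to LDHB is not reported here.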

Additional observations from a re-analysis of the deposited data

Results flagged for a closer look

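At the step from naïve to primed, 6 genes were called different between human and mouse in the edgeR interaction test. The difference (mouse minus human log2 fold change) was -4.72 for SLC2A3, -3.00 for HK1, -1.94 for PFKP, 2.39 for PFKL, -1.53 for LDHB and -1.29 for PDK1. HK1 was called in opposite directions in the 2 species, and SLC2A3, called lower in mouse, was at 0.97 in human.

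At the step from primed to early, the difference was 2.58 for SLC2A3, -1.70 for HK2, 1.73 for PFKP, -1.75 for LDHA, 1.88 for LDHB and -2.05 for PFKFB3. The larger change was the mouse one for SLC2A3, PFKP and LDHB and the human one for HK2, LDHA and PFKFB3.

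At the step from early to late, it was 3.49 for SLC2A1, 4.39 for SLC2A3, 1.22 for HK1, 1.62 for HK2, -1.01 for PFKP, 1.081 for LDHA and 1.96 for PFKFB3. PFKP, which fell in both species, was the 1 gene of the 7 with the larger fall in mouse. Its difference lay just past the fold threshold and was no longer called in 6 alternatives. It was -0.91 with DESeq2 size factors, -0.97 with upper quartile scaling, -0.91 with the DESeq2 test, -0.99 without replicate 1 of early RA-gastruloids, -0.97 without replicate 1 of mouse early gastruloids and -0.74 without replicate 1 of late RA-gastruloids.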

How the results depend on the processing

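Counts of called genes moved by more than 1.5 times under 1 of the alternatives run, calling by adjusted p alone: 8 from naïve to primed H9, 9 between the primed lines, 9 into early RA-gastruloids, 8 from mouse naïve to EpiLC, 9 from EpiLC to early, 9 from mouse early to late and 9 from mouse naïve to early. Leaving out each replicate in turn gave 4 to 4, 5 to 6, 4 to 5, 8 to 8 and 6 to 6 calls in the human comparisons and 5 to 6, 3 to 3, 5 to 5 and 3 to 4 in the mouse ones, where the lone sample is assumed to vary like the other groups. Signs turned for changes near 0 that were not called. SLC2A1 from naïve to primed H9 was -0.057 with DESeq2 size factors, -0.057 with the DESeq2 test and -0.037 to 0.11 without a replicate. PFKFB3 from RUES2-GLR to late was -0.10 (DESeq2 size factors), -0.12 (upper quartile), -0.0060 (no filter), -0.093 (DESeq2 test), -0.12 (compared groups only) and -0.091 to 0.10 without a replicate. Slc2a1 was -0.020 (upper quartile) and -0.033 to 0.076 (without a replicate) from EpiLCs to early, and -0.041 (upper quartile), -0.081 (no filter), -0.0058 (compared groups only) and -0.018 to 0.023 (without a replicate) from early to late. Pfkl from naïve to EpiLC was -0.015 to 0.16 without a replicate. The species difference of LDHA from naïve to primed was -0.18 to 0.0014 without a replicate, and that of PDK1 from early to late -0.18 to 0.33. The cause was not tested. Hk1 from mouse naïve to early was no longer called in 4 alternatives (-0.957 upper quartile, -0.970 no filter, -0.997 compared groups only, -0.981 without naïve replicate 1). PDK1 was called between the primed lines in 5, Hk2 from naïve to EpiLC in 2 (without naïve replicate 1 or EpiLC replicate 2) and PFKL into early RA-gastruloids in 1 (without RUES2-GLR replicate 2). All 88 alternative exact permutation tests of isoform ratios kept their side of the threshold, and 47 of 72 shares moved by more than 1 SD with other gene lengths.

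Replicate numbers did not pair the samples: correlations of the deviations of same-numbered samples lay between -0.112 and 0.0684 for human groups and between -0.0483 and 0.00806 for mouse. With the replicate block the calls numbered 4, 5, 4, 8 and 6 in the human comparisons, 5, 3, 5 and 4 in the mouse ones and 6, 6 and 7 between species, and no call of the 10 genes changed. With DESeq2 size factors the calls between the primed lines split into 3568 higher and 1627 lower, against 3130 and 2227 with TMM. The depth of the shallowest library, 3681739 reads, limits genes of few counts.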
